A study of Mus musculus with 6 samples.

Results

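Kinesins, cytoplasmic dyneins and tubulins make up the microtubule motors and tracks of a cell, and their RNA was examined in TM3, a cell line established from mouse Leydig cells, the androgen-producing cells of the testis. The genes were chosen by name and biotype alone: every protein-coding gene of the deposited count table whose symbol starts with Dynl, or with Kif, Dync, Tuba, Tubb or Tubg followed by a number. This gave 72 of 54532 genes, and no expression value was used. By role they comprised 11 kinesins of mitosis, 14 transport kinesins, 13 other kinesins, 5 heavy, intermediate and light intermediate chains of dynein 1, 2 chains of dynein 2, 9 dynein light chains, 7 alpha, 8 beta and 2 gamma tubulins. The remaining gene, Kif1bp, matched by its symbol but encodes a protein that binds kinesins and is not one itself.

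RNA sequencing was available for 3 libraries of TM3 cells overexpressing A20 and for 3 libraries of wild-type TM3 cells labelled as the overexpression control. A20 is the protein encoded by Tnfaip3, and it edits ubiquitin chains to hold back NF-kB signalling. Both groups were grown in DMEM/F12 with fetal bovine and horse serum and with antibiotics. The vector, promoter and species of the A20 sequence, whether the cells were 1 clone, and whether the libraries of a group came from separate cultures are not given in the sources used here. The p-values therefore measure only the spread between these samples, which may be technical.

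Total counts ran from 15097570 to 16917979 in the A20-overexpressing libraries and from 13841287 to 15349354 in the control libraries, so that 3 counts corresponded to 0.177 to 0.217 CPM, the unit of counts scaled to library depth. Tnfaip3 stood at 41.0, 33.7 and 43.6 CPM in A20-overexpressing replicates 1, 2 and 3, and at 30.9, 11.9 and 15.2 CPM in control replicates 1, 2 and 3, so that every A20-overexpressing library lay above every control library. The log2 fold change of Tnfaip3 was 1.505 ± 0.188 (SE) without control replicate 1, with an adjusted p of 0.000256 in edgeR. With all 6 libraries it was 1.083 ± 0.297 (SE) and did not pass (adjusted p = 0.331 in edgeR). Control replicate 1 stood apart. The summed level of 8 Leydig cell markers was 5.26 to 7.86 CPM in the A20-overexpressing libraries, 2040 CPM in control replicate 1 and 3.97 to 6.29 CPM in control replicates 2 and 3. Hsd3b1, Hsd3b6, Cyp17a1 and Lhcgr had no count in the other 5 libraries, and 8168, 15, 24 and 113 counts in control replicate 1. Each of the remaining markers had a count in at least 1 of the other 5 libraries. Star stood at 497 CPM in control replicate 1 and at 2.52 to 4.54 CPM in the other 5. Insl3 stood at 25.8 CPM in control replicate 1 and at 0.418 to 2.91 CPM in the other 5. Cyp11a1 and Nr5a1 stood at 851 and 125 CPM in control replicate 1 and at no more than 0.144 and 0.596 CPM in the other 5. Cyp11a1 had 2 counts in control replicate 3, and none in the A20-overexpressing libraries or control replicate 2. The comparison was therefore made with all 6 libraries and again without control replicate 1, and fitted changes are given from both where they differ in sign or by over 1.5 times. Over the genes tested without it, which are no independent replicates, log2 CPM of that library correlated with the other 5 at a Pearson r of 0.926 to 0.945, against 0.967 to 0.991 among those 5. For the remaining marker lists, the summed CPM in the A20-overexpressing libraries, control replicate 1 and control replicates 2 and 3 was as follows. Sertoli cell markers stood at 132 to 148, 303 and 140 to 183 CPM, with Clu the 1 marker that was lower (adjusted p = 0.00288 in edgeR without control replicate 1). Germ cell markers stood at 8.08 to 12.2, 9.77 and 6.13 to 8.24 CPM, macrophage markers at 20.7 to 39.9, 4.43 and 32.1 to 32.3 CPM, endothelial markers at 3.31 to 5.11, 36.7 and 3.97 to 4.55 CPM, and markers of multiciliated cells at 2.68 to 3.51, 4.50 and 3.76 to 4.05 CPM. Few genes carried several of these sums, so they are not read as cell types. In control replicate 1 the Sertoli markers Clu and Wt1 stood at 221 and 77.5 CPM, the latter its lowest library. The endothelial marker Cdh5 stood there at 35.1 CPM and the macrophage marker Cd68 at 3.71 CPM. Sox9 of the Sertoli list and Adgre1 and Ptprc of the macrophage list had no count in any library.

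Microtubules are hollow polymers of paired alpha and beta tubulin, and gamma tubulin starts their growth at the centrosome. Most kinesins walk towards the growing plus end of the microtubule carrying vesicles, organelles or chromosomes, and a few of them take tubulin off the ends instead. Cytoplasmic dynein walks the other way: dynein 1 serves the cell body and the spindle, dynein 2 the cilium. In dividing cells a set of kinesins is made mainly before and during mitosis. In Leydig cells microtubules also carry organelles that hold cholesterol and steroid-making enzymes.

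Without control replicate 1, 2 of the 56 members that could be tested were lower in A20-overexpressing cells and none was higher. They were Kif15, a kinesin that holds the poles of the spindle apart, and Dynll2, a light chain of the LC8 family that dynein shares with many other protein complexes. Kif15 was 1.53-fold and Dynll2 1.45-fold lower. None of the 56 changed by more than 1 on the log2 scale in that comparison. Most fitted changes were small: 32 of 56 had a fitted log2 fold change of less than 0.2 in size, and 6 exceeded 0.5.

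The share of members called was 3.57% in the 5-library comparison, where edgeR's quasi-likelihood test at an adjusted p under 0.05 called 4.60% of 13658 genes, 1.92% higher and 2.68% lower. The members' share thus lay near that of all genes. An unadjusted p under 0.05 was found for 11 members, 4 with higher and 7 with lower values in A20-overexpressing cells, or 19.6% against 21.6% of all genes. The CPM ranges of the groups were separate for 12 members that were higher (20.7% of all genes) and 6 that were lower (17.2% of all genes), together 32.1% of those tested against 37.9% of all genes. The median log2 fold change was -6e-05 for the members and -0.00 for all genes.

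With all 6 libraries no member passed. That comparison called 2 of 13350 genes, or 0.0150%, 1 higher (0.00749%) and 1 lower (0.00749%). An unadjusted p under 0.05 was found for 5 of the 56 members, 2 higher and 3 lower, or 8.93% against 10.0% of all genes. DESeq2 called 1 member, Dynll2, or 1.79% against 1.37% of all genes. The CPM ranges of the groups were separate for 4 members that were higher (7.62% of all genes) and 3 that were lower (9.27% of all genes), together 12.5% against 16.9% of all genes. The lowest adjusted p of a member in edgeR was 0.274, that of Dynll2. The median log2 fold change was -0.02 for the members and -0.03 for all genes.

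**Figure D1:**
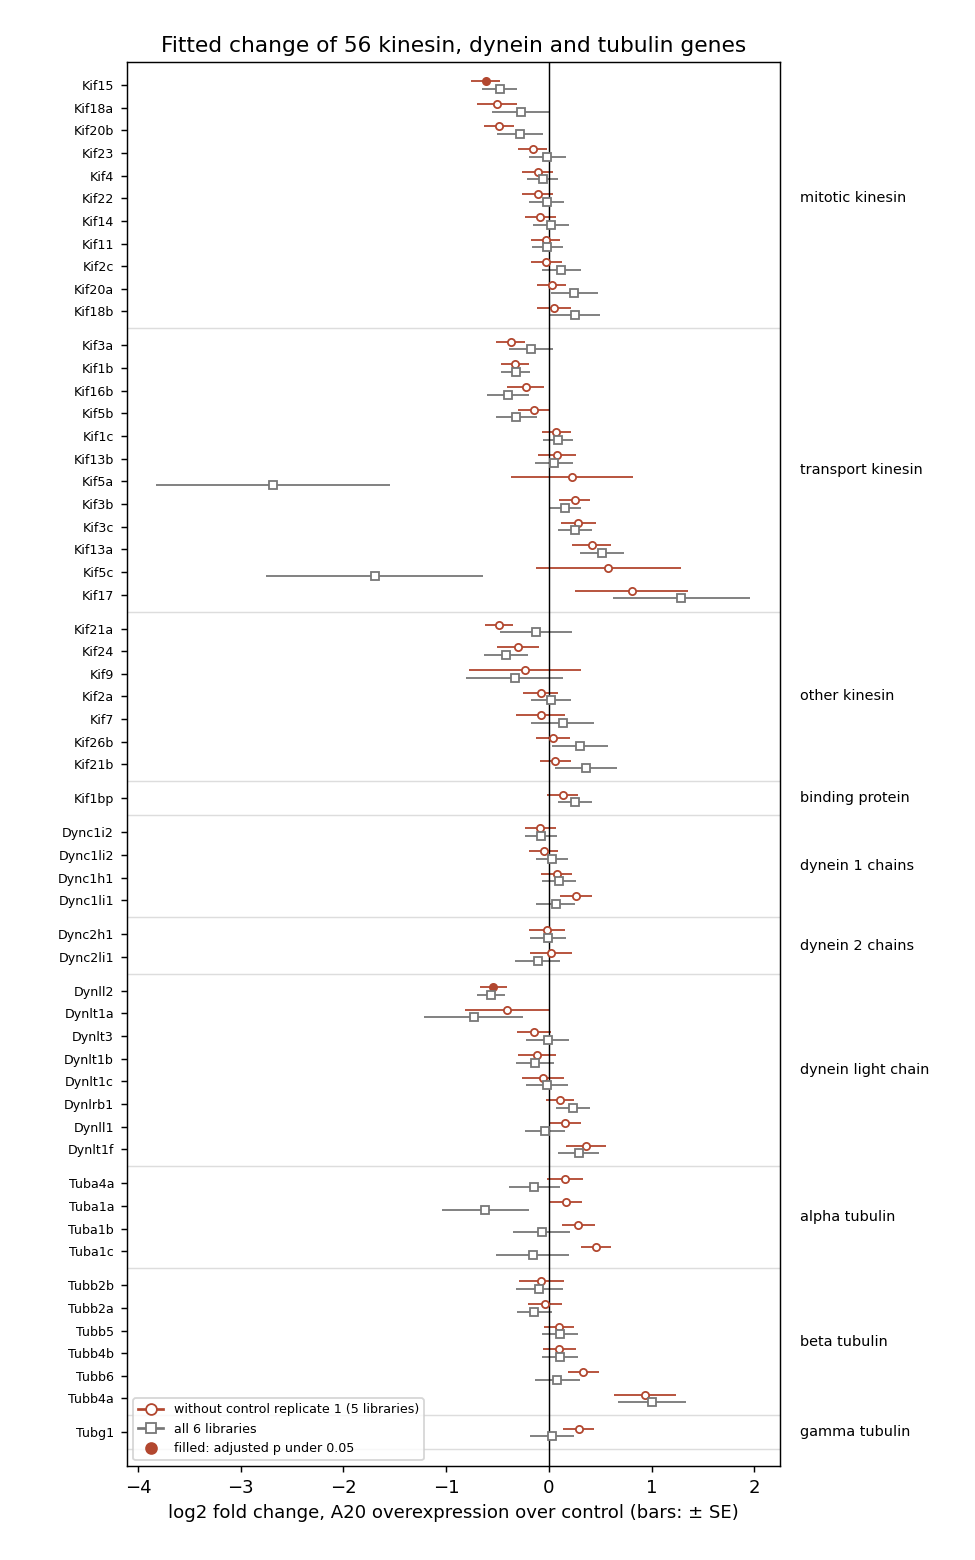
Fitted log2 fold change of the 56 tested kinesin, dynein and tubulin genes, A20 overexpression over control, grouped by role along the vertical axis. Circles are the 5-library comparison, squares all 6 libraries, bars the standard error, and filled circles an adjusted p under 0.05. Only Kif15 and Dynll2 are filled, and Kif5a and Kif5c have squares far to the left of their circles, at -2.68 and -1.70.

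All 11 kinesins of mitosis were tested, and 1 of them, Kif15, fell. Kif15 (ENSMUSG00000036768, GRCm38 chromosome 9, 122951046 to 123018733, plus strand) stood at 46.9, 42.6 and 47.4 CPM in A20-overexpressing replicates 1, 2 and 3, and at 56.7, 62.7 and 74.2 CPM in control replicates 1, 2 and 3. Every A20-overexpressing library lay below every control library, control replicate 1 included. The means were 45.7 CPM ± 2.65 (SD, n = 3) under A20 overexpression and 68.5 CPM ± 8.11 (SD, n = 2) in control replicates 2 and 3. The log2 fold change was -0.62 ± 0.14 (SE), with an adjusted p of 0.0224 in edgeR's quasi-likelihood test. With all 6 libraries it was -0.48 ± 0.17 (SE), with an adjusted p of 0.440. In bulk RNA, fewer dividing cells and less Kif15 RNA per cell cannot be told apart.

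The call for Kif15 ended without any 1 of the A20-overexpressing libraries, where the adjusted p was 0.0948 to 0.101, and in limma on log2 of the deposited FPKM. The fitted change stayed between -0.69 and -0.52 in the 15 alternatives to that comparison.

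Kif20b, a kinesin of cytokinesis, and Kif18a, which limits the length of kinetochore microtubules, also had lower values without control replicate 1 but did not pass. Kif20b was at 105, 92.5 and 80.0 CPM under A20 overexpression, against 86.7, 127 and 126 CPM in the control libraries (log2 fold change -0.49 ± 0.15 SE, adjusted p = 0.0632 in edgeR without control replicate 1, and -0.28 ± 0.22 SE with all 6 libraries). Control replicate 1 lay among the A20-overexpressing libraries and the other 2 controls above them. Kif18a was at 57.2, 51.9 and 38.3 CPM under A20 overexpression, against 42.5, 79.5 and 56.2 CPM in the control libraries. Its groups overlapped, and its log2 fold change of -0.51 ± 0.19 (SE) had an adjusted p of 0.137 in edgeR, against a change of -0.27 ± 0.29 (SE) with all 6 libraries.

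Without control replicate 1 the other 8 kinesins of mitosis had log2 fold changes between -0.16, for Kif23 of the centralspindlin complex, and 0.05, for Kif18b, which shortens astral microtubules. With all 6 libraries they lay between -0.06, for Kif4, and 0.26, for Kif18b, with Kif20a at 0.25 and Kif23 at -0.02. Kif11, the motor that pushes the spindle poles apart early in mitosis, had a log2 fold change of -0.03 ± 0.14 (SE) without control replicate 1 and -0.02 ± 0.15 (SE) with it. Kif20a, which brings the chromosomal passenger complex to the midzone, was the most abundant of these kinesins per length, at a mean of 35.4 FPKM. Kif20a was at 156, 146 and 133 CPM under A20 overexpression, against 91.2, 128 and 151 CPM in the control libraries. Its lowest value was that of control replicate 1 and the remaining 5 libraries overlapped.

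The 16 proliferation markers summed to 3095 to 3796 CPM in the A20-overexpressing libraries, against 2981 CPM in control replicate 1 and 3800 to 3846 CPM in control replicates 2 and 3. The A20-overexpressing sums thus lay below those of control replicates 2 and 3, the highest narrowly, and above that of control replicate 1. Without Top2a, the most abundant of them, the other 15 summed to 2152 to 2600.2 CPM in the A20-overexpressing libraries, against 2209 CPM in control replicate 1 and 2376 to 2610.1 CPM in control replicates 2 and 3, and the groups overlapped. The median log2 fold change of the 16 without control replicate 1 was -0.09, with 6 positive and 10 negative, and none passed. Their part in the values of Kif15 was not tested. The kinesins of mitosis summed to 1036, 980 and 858 CPM in the A20-overexpressing libraries, against 852, 1002 and 1085 CPM in the control libraries, and the groups overlapped.

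Kif15 shares promoter letters with most kinesins of mitosis. The cell cycle homology region is a short promoter element of many genes of mitosis, and its letters TTTGAA or TTCGAA, or TTCAAA on the opposite strand, were searched in RefSeq promoters of GRCm38.p6, 250 bases before to 50 after the start. The first listed promoter of each gene was used. Of the 10 kinesins of mitosis with a promoter there, 9 held the letters (90.0%), against 5254 of 27025 promoters (19.4%). The letters stood in 3 of 11 other kinesins (27.3%) and in 0 of 10 transport kinesins. For Kif14 and Kif2c, both with a match, the window lies inside the annotated gene and not at its outer end. CCAAT or ATTGG stood in 6 of the 10 (60%), against 37.9% of all promoters. A stretch of 30 bases around the match nearest the start is shown for Kif15 (chr9:122951050-122951079, plus strand), because its RNA fell, and for Kif20b (chr19:34922353-34922382, plus strand), Kif11 (chr19:37376351-37376380, plus strand) and Kif23 (chr9:61946780-61946809, minus strand), whose RNA did not pass. Capitals mark the letters searched.
Kif15: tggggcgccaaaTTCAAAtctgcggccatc
Kif20b: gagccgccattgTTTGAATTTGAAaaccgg
Kif11: tcgtctccatttTTCAAAattgaggcgcgg
Kif23: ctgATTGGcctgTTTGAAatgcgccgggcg

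All 4 stretches hold the letters, Kif20b has them in tandem, and Kif23 has ATTGG beside them. Kif18a was the 1 kinesin of mitosis among the 10 without a match in this window. The match is a description of letters, which both the called Kif15 and the uncalled Kif11 and Kif23 carry.

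Of the 14 transport kinesins 12 were tested and none passed in either comparison. Kif5b, the heavy chain of conventional kinesin in most tissues, was the most abundant of them per length, at a mean of 43.9 FPKM, and made up 27.9% to 33.8% of the summed transport kinesin FPKM in the A20-overexpressing libraries and 29.9% to 41.2% in the control libraries. Kif5b was at 317, 254 and 293 CPM under A20 overexpression, against 485, 339 and 283 CPM in the control libraries. The groups overlapped, and control replicate 1 was the highest library. Its log2 fold change was -0.15 ± 0.15 (SE) without that library and -0.32 ± 0.20 (SE) with it.

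Kif3a and Kif1b had lower values in the A20-overexpressing libraries, and Kif13a higher ones, each short of the threshold. Kif3a, a motor subunit of the kinesin that builds cilia, was at 67.4, 75.6 and 75.0 CPM under A20 overexpression, against 64.0, 95.1 and 88.4 CPM in the control libraries (log2 fold change -0.37 ± 0.14 SE, adjusted p = 0.135 in edgeR without control replicate 1, and -0.17 ± 0.21 SE with all 6 libraries). Kif1b, which carries mitochondria and vesicle precursors, was at 166, 147 and 145 CPM under A20 overexpression, against 209, 186 and 188 CPM in the control libraries (-0.33 ± 0.14 SE, adjusted p = 0.177 in edgeR). Kif1b did not overlap between the groups even with control replicate 1, whereas Kif3a overlapped through that library alone.

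Kif13a, which moves endosomes towards the cell surface, was at 56.8, 46.8 and 60.7 CPM under A20 overexpression, against 36.4, 29.8 and 50.8 CPM in the control libraries. Its groups overlapped through control replicate 3, and the log2 fold change of 0.42 ± 0.19 (SE) had an adjusted p of 0.211 in edgeR without control replicate 1. Kif3b, the partner of Kif3a, had a log2 fold change of 0.25 ± 0.15 (SE) without control replicate 1 and 0.16 ± 0.16 (SE) with it, with the opposite sign to Kif3a in both, and did not pass.

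Among the 13 other kinesins 7 were tested. Kif21a, a kinesin that slows microtubule growth at the cell cortex, came closest to the threshold. It was at 86.5, 77.1 and 77.0 CPM under A20 overexpression, against 42.9, 108 and 112 CPM in the control libraries. Control replicate 1 lay below all A20-overexpressing libraries and the other 2 controls above them. Its log2 fold change was -0.49 ± 0.14 (SE), with an adjusted p of 0.0506 in edgeR without control replicate 1, and -0.13 ± 0.35 (SE) with an adjusted p of 0.926 with all 6 libraries. The 5-library value passed in 4 of 15 alternatives: with RLE scaling (adjusted p = 0.0486), a filter of 1 CPM in 2 libraries (0.0475), DESeq2 (0.0234) and without control replicate 3 (0.0169).

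Kif21b, the closest relative of Kif21a and the most abundant of these kinesins at a mean of 14.3 FPKM, was at 178, 202 and 207 CPM under A20 overexpression, against 91.9, 153 and 214 CPM in the control libraries. The groups overlapped and the log2 fold change was 0.06 ± 0.15 (SE) without control replicate 1 and 0.36 ± 0.30 (SE) with it. Kif24, which trims centriolar microtubules, was at 17.7, 14.0 and 15.4 CPM under A20 overexpression, against 26.6, 16.3 and 21.7 CPM in the control libraries. Kif2a, which takes tubulin off microtubule ends, was at 72.1, 63.5 and 57.5 CPM under A20 overexpression, against 60.1, 76.7 and 55.6 CPM in the control libraries. Both overlapped between the groups, with adjusted p of 0.410 for Kif24 and 0.833 for Kif2a in edgeR without control replicate 1. The log2 fold change of Kif2a was -0.08 ± 0.17 (SE) in that comparison and 0.02 ± 0.20 (SE) with all 6 libraries. Kif1bp, whose product keeps several kinesins off the microtubule, was at 48.4, 45.9 and 44.3 CPM under A20 overexpression, against 35.2, 39.9 and 42.3 CPM in the control libraries, without overlap but with an adjusted p of 0.656 in edgeR. Its log2 fold change was 0.13 ± 0.15 (SE) without control replicate 1 and 0.26 ± 0.17 (SE) with it.

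**Figure D2:**
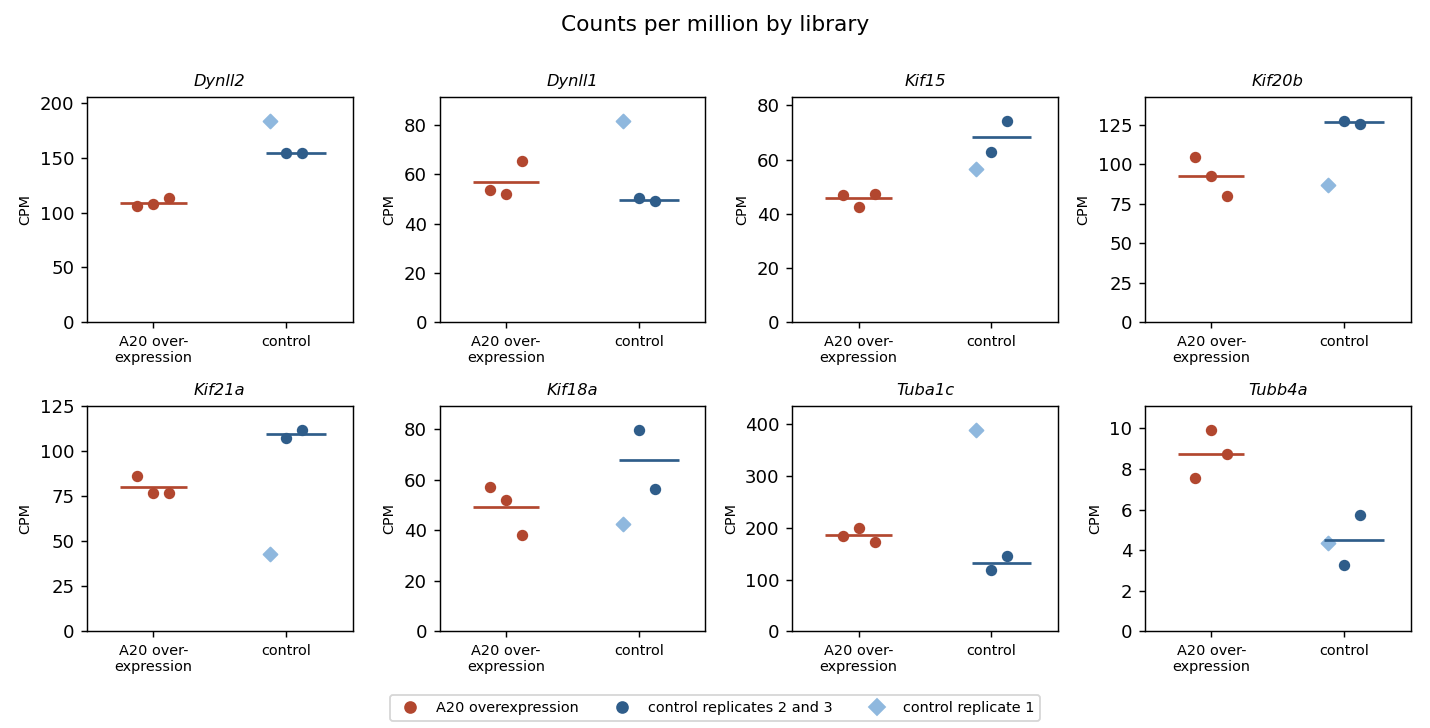
Counts scaled to library depth (CPM) by library for 8 members, A20 overexpression on the left and control on the right of each panel, with the vertical axis starting at 0. Points are libraries, and lines the means of the A20-overexpressing libraries and of control replicates 2 and 3. Dynll2, Kif15 and Tubb4a are separated between the groups with all 3 control libraries. In Dynll1, Kif21a and Tuba1c, control replicate 1, the diamond, lies on the other side of the A20-overexpressing libraries from control replicates 2 and 3.

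No motor or cargo-binding chain of dynein passed the test. Of the 5 chains of dynein 1, Dync1i1 had no count in any library and the other 4 were tested in both comparisons. Dync1h1, the heavy chain that walks, was at 594, 515 and 622 CPM under A20 overexpression, against 579, 481 and 590 CPM in the control libraries. Its log2 fold change was 0.08 ± 0.15 (SE) without control replicate 1 and 0.10 ± 0.17 (SE) with it. Dync1i2, the intermediate chain that holds the light chains, was at 111, 107 and 95.3 CPM under A20 overexpression, against 122, 118 and 97.2 CPM in the control libraries. Dync1li2 and Dync1li1, the light intermediate chains that grip cargo adaptors, had log2 fold changes of -0.05 ± 0.14 and 0.26 ± 0.15 (SE) without control replicate 1. These were 0.03 ± 0.15 for Dync1li2 and 0.07 ± 0.19 for Dync1li1 (SE) with all 6 libraries. Per length, Dync1li2 had the highest mean of the 4, 37.8 FPKM, next to 35.7 FPKM for Dync1h1.

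Dynein 2, the motor that returns material from the tip of the cilium, was represented by Dync2h1 and Dync2li1. Dync2h1 was at 35.1, 27.3 and 32.5 CPM under A20 overexpression, against 34.9, 26.8 and 35.9 CPM in the control libraries. Dync2li1 was at 16.8, 18.6 and 17.1 CPM under A20 overexpression, against 24.4, 19.0 and 14.7 CPM in the control libraries. Both overlapped between the groups, and their log2 fold changes without control replicate 1 were -0.02 ± 0.18 for Dync2h1 and 0.02 ± 0.21 for Dync2li1 (SE). With it they were -0.01 ± 0.18 for Dync2h1 and -0.11 ± 0.22 for Dync2li1 (SE).

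Of the 9 dynein light chains 8 were tested and 1, Dynll2, fell. Dynll2 and Dynll1 encode the LC8 proteins, small dimers that bind a short motif in dynein intermediate chain and in many proteins outside dynein. Their coding sequences are alike but not interchangeable for counting: 51 of 270 bases differ, an identity of 81.1%, and no stretch of 50 bases of the Dynll2 transcript occurs in the transcript of another gene. The first 60 coding bases, from GENCODE M21 transcripts on GRCm38, are shown to make that visible, with the 9 bases that differ in capitals.
Dynll2: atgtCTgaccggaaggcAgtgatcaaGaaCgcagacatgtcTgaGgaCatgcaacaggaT
Dynll1: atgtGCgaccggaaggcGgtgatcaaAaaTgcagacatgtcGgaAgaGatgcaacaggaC

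Dynll2 (ENSMUSG00000020483) lies on the minus strand of GRCm38 chromosome 11, from 87979525 to 87987533. Its level was 106, 108 and 113 CPM in A20-overexpressing replicates 1, 2 and 3, and at 184, 155 and 155 CPM in control replicates 1, 2 and 3. All A20-overexpressing libraries lay below all control libraries. In CPM control replicate 1 was the highest, whereas in the deposited FPKM it was at 60.2 and control replicate 2 at 60.4. The means were 109 CPM ± 3.72 (SD, n = 3) under A20 overexpression and 155 CPM ± 0.0597 (SD, n = 2) in control replicates 2 and 3. The log2 fold change was -0.54 ± 0.13 (SE), with an adjusted p of 0.0296 in edgeR's quasi-likelihood test. With all 6 libraries it was -0.56 ± 0.14 (SE), with an adjusted p of 0.274, so the fitted size hardly moved while the call was lost. The call also ended without any 1 of the A20-overexpressing libraries, where the adjusted p was 0.103 to 0.139, and in limma on the deposited FPKM.

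Dynll1 did not pass the test. It was at 53.4, 52.1 and 65.4 CPM under A20 overexpression, against 81.6, 50.3 and 49.1 CPM in the control libraries. Without control replicate 1 the groups did not overlap, but the log2 fold change of 0.16 ± 0.15 (SE) had an adjusted p of 0.590 in edgeR. Control replicate 1 made the groups overlap, and with it the fitted change had the opposite sign, -0.04 ± 0.20 (SE). Per length, Dynll2 made up 16.6% ± 0.832 (SD, n = 3) of the summed light chain FPKM under A20 overexpression and 22.7% ± 0.129 (SD, n = 2) in control replicates 2 and 3, with 26.4% in control replicate 1.

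Dynlrb1, the roadblock light chain and the most abundant of the light chains at a mean of 96.7 FPKM, was at 105, 110 and 99.7 CPM under A20 overexpression, against 81.4, 91.0 and 99.3 CPM in the control libraries. The groups just failed to overlap, and the log2 fold change was 0.11 ± 0.14 (SE) without control replicate 1 (adjusted p = 0.700 in edgeR) and 0.23 ± 0.16 (SE) with it. Dynlrb1 made up 43.3% ± 1.25 (SD, n = 3) of the light chain FPKM under A20 overexpression and 37.9% ± 2.54 (SD, n = 2) in control replicates 2 and 3. Dynlt3, a light chain of the Tctex family, had a log2 fold change of -0.14 ± 0.17 (SE) without control replicate 1 and -0.01 ± 0.21 (SE) with it.

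Counts of the Dynlt1 genes, a cluster of Tctex light chain copies on chromosome 17, are uncertain. Of the 50-base stretches of their transcripts, 93.7% for Dynlt1c, 93.1% for Dynlt1f, 83.2% for Dynlt1b and 67.7% for Dynlt1a also occur in another gene. The 342 coding bases of Dynlt1c are the same as those of Dynlt1a and Dynlt1f, and 1 base differs in Dynlt1b. That base, in capitals, falls in the first 60 coding bases, shown because it is the whole coding difference between these copies.
Dynlt1b: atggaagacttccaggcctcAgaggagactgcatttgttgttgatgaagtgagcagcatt
Dynlt1c: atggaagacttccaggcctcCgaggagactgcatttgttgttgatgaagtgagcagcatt

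Dynlt1f, the copy with the smallest unadjusted p, was at 22.3, 26.6 and 22.3 CPM under A20 overexpression, against 23.6, 15.4 and 20.8 CPM in the control libraries. The groups overlapped through control replicate 1, and the adjusted p without it was 0.290 in edgeR. The log2 fold changes of Dynlt1a, Dynlt1b and Dynlt1c were -0.41 ± 0.41, -0.12 ± 0.19 and -0.06 ± 0.20 (SE) without control replicate 1. With it, Dynlt1a was at -0.73 ± 0.48, Dynlt1b at -0.14 ± 0.18 and Dynlt1c at -0.02 ± 0.21 (SE).

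Among the alpha tubulins, Tuba1b, Tuba1c, Tuba1a and Tuba4a were tested, and the sign of all 4 fitted changes turned with 1 library. Without control replicate 1 they were between 0.15 and 0.46 on the log2 scale, and with all 6 libraries between -0.62 and -0.07. No alpha tubulin passed in either comparison. Control replicate 1 held the highest value of all 6 libraries for each of the 4.

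Tuba1c was at 183, 199 and 173 CPM under A20 overexpression, against 388, 119 and 145 CPM in the control libraries. Control replicates 2 and 3 lay below all A20-overexpressing libraries and control replicate 1 far above them. The log2 fold change without that library was 0.46 ± 0.15 (SE), with an adjusted p of 0.0782 in edgeR, and -0.16 ± 0.36 (SE) with it. Tuba1b, the main alpha tubulin of dividing cells, was at 581, 598 and 521 CPM under A20 overexpression, against 952, 377 and 533 CPM in the control libraries. Tuba1a, the form most abundant in brain, was at 43.7, 48.6 and 39.8 CPM under A20 overexpression, against 137, 34.3 and 42.8 CPM in the control libraries. Tuba1a and Tuba1b overlapped between the groups, and their adjusted p without control replicate 1 was 0.609 and 0.304 in edgeR.

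The make-up of alpha tubulin RNA differed little between the groups outside control replicate 1. Per length, Tuba1b made up 71.9% ± 0.492 (SD, n = 3) of alpha tubulin FPKM under A20 overexpression and 72.7% ± 1.60 (SD, n = 2) in control replicates 2 and 3, with 65.5% in control replicate 1. Tuba1c made up 19.3% ± 0.456 under A20 overexpression (SD, n = 3) and 17.5% ± 1.40 in control replicates 2 and 3 (SD, n = 2), with 21.9% in control replicate 1. These shares depend on how reads were divided between copies, since 83.1% of the 50-base stretches of Tuba1b, 75.5% of Tuba1a and 61.0% of Tuba1c also occur in another gene, and the coding sequences of Tuba1b and Tuba1a are 98.3% identical.

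Of the 8 beta tubulins 6 were tested and none passed. Tubb5, the beta tubulin of most dividing cells and the most abundant member of all at a mean of 369 FPKM, was at 1317, 1321 and 1170.4 CPM under A20 overexpression, against 1283, 1139 and 1181 CPM in the control libraries. The groups overlapped and the log2 fold change without control replicate 1 was 0.10 ± 0.15 (SE). Tubb5 made up 67.2% ± 0.419 (SD, n = 3) of beta tubulin FPKM under A20 overexpression and 68.2% ± 3.94 (SD, n = 2) in control replicates 2 and 3. Tubb4b followed at 19.2% ± 1.00 under A20 overexpression (SD, n = 3) and 19.4% ± 2.69 in control replicates 2 and 3 (SD, n = 2).

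Tubb4a, a beta tubulin best known from brain, had the largest fitted change of any tubulin. It was at 7.57, 9.90 and 8.74 CPM under A20 overexpression, against 4.37, 3.28 and 5.71 CPM in the control libraries. The groups did not overlap with any of the 3 control libraries. The log2 fold change was 0.93 ± 0.30 (SE) without control replicate 1 (adjusted p = 0.0841 in edgeR) and 1.01 ± 0.33 (SE) with all 6 libraries (adjusted p = 0.421). Per length it remained scarce, at 0.693% ± 0.0992 (SD, n = 3) of beta tubulin FPKM under A20 overexpression and 0.388% ± 0.118 (SD, n = 2) in control replicates 2 and 3.

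Tubb6, a beta tubulin found in many tissues, was at 93.9, 83.7 and 82.3 CPM under A20 overexpression, against 120, 56.0 and 78.6 CPM in the control libraries. Control replicate 1 was again the highest library, and without it the log2 fold change was 0.34 ± 0.15 (SE), with an adjusted p of 0.216 in edgeR, against 0.08 ± 0.22 (SE) with all 6 libraries. Tubg1, the gamma tubulin of the centrosome, was at 61.5, 65.5 and 56.3 CPM under A20 overexpression, against 88.5, 45.2 and 52.5 CPM in the control libraries. Its log2 fold change was 0.29 ± 0.15 (SE) without control replicate 1 and 0.03 ± 0.21 (SE) with it, with adjusted p of 0.270 and 0.974 in edgeR.

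**Figure D3:**
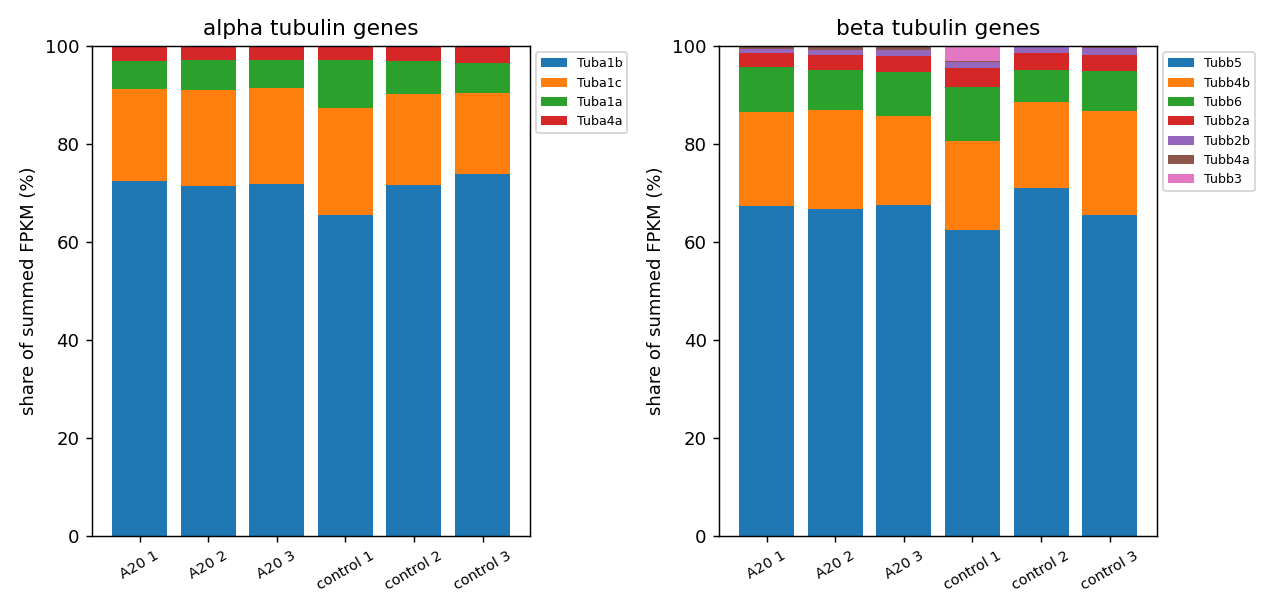
Share of each gene in the summed FPKM of alpha tubulin genes (left) and beta tubulin genes (right), in percent, with 1 bar per library and A20-overexpressing libraries on the left. Tuba1b and Tubb5 take the largest share in every library, and control replicate 1 differs by a smaller share of both and by Tubb3, at 2.99%.

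In CPM, control replicate 1 was the highest of the 6 libraries for 23 of the 56 tested members (41.1%) and the lowest for 10 (17.9%). These lay near the shares of 39.8% and 21.7% over all 13658 genes. The members highest there included all 4 tested alpha tubulins. None of the 11 kinesins of mitosis was highest there, and Kif18b, Kif20a and Kif2c were lowest. CPM use the total count alone. The 6-library fit also applied scaling factors, 1.11 for control replicate 1 and 0.937 to 0.998 for the others. The order of libraries can therefore differ in scaled units.

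Some members that were scarce elsewhere were far higher in that library. Tubb3, a beta tubulin used as a marker of neurons, had 8, 1 and 4 counts in the A20-overexpressing libraries, against 530, 1 and 1 counts in control replicates 1, 2 and 3, the 530 counts being 34.5 CPM. Kif5a and Kif5c, the conventional kinesin heavy chains best known from neurons, stood at 22.3 and 10.1 CPM in control replicate 1 and at no more than 1.32 and 1.72 CPM in any other library. The neuronal markers Rbfox3, Snap25, Syt1, Elavl4 and Stmn2 had no count in any control library, and their sum reached 0.296 CPM in the A20-overexpressing libraries. The part of control replicate 1 in the 6-library values of Kif5a and Kif5c can be read directly: their log2 fold changes were -2.68 ± 1.14 and -1.70 ± 1.05 (SE) with it and 0.22 ± 0.59 and 0.58 ± 0.71 (SE) without it, and neither passed.

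Another 7 scarce members were also highest in control replicate 1 in CPM, some of them narrowly. All 10 were picked by that rule, and the share of all genes that meet it was not counted. Tubg2, the second gamma tubulin, had 0, 1 and 0 counts in the A20-overexpressing libraries, against 51, 0 and 1 counts in the control libraries. Kif19a, which shortens cilia, had 33 counts in control replicate 1 and none in the other 5 libraries, where 3 counts would be 0.177 to 0.217 CPM. Tuba8 had 21 counts there, Kif27 had 26, Kif1a had 11 and Tuba3b had 2, with at most 2, 11, 1 and 0 counts in any other library. The 2 counts of Tuba3b lie under the floor of 3 counts. Kif9 stood at 2.02 CPM in control replicate 1 and at 0.887 to 1.74 CPM elsewhere. In the deposited FPKM Kif9 was at 0.422 in control replicate 1 and higher, at 0.433, in control replicate 2.

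**Figure D4:**
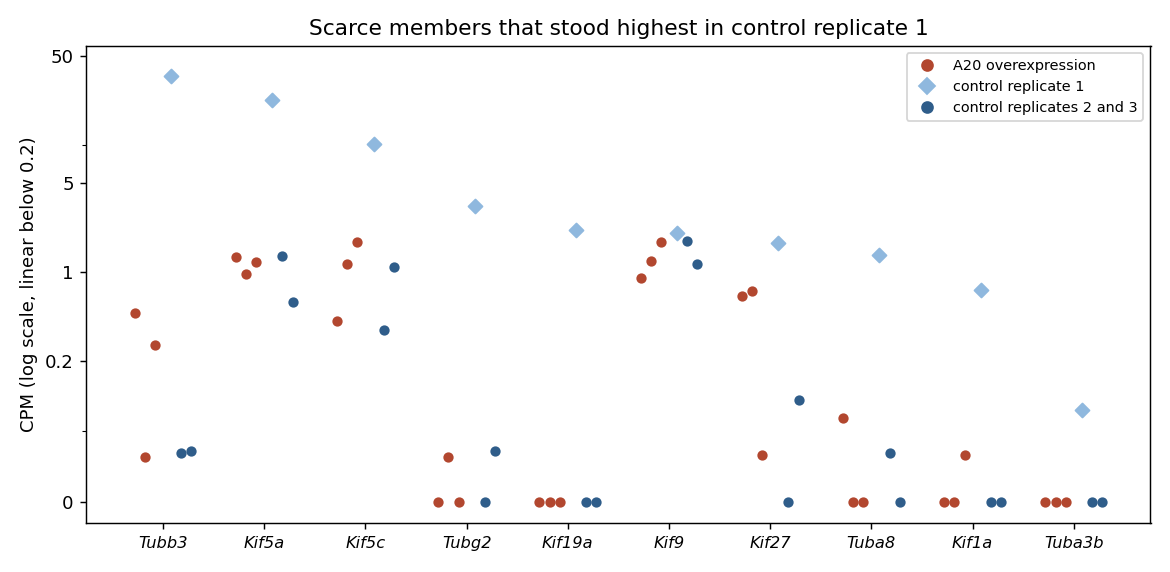
CPM of the 10 members that were highest in control replicate 1 and under 3 CPM in the other 5 libraries, on a log axis that is linear below 0.2. Each point is a library, with A20-overexpressing libraries on the left of each gene. The diamonds of Tubb3, Kif5a and Kif5c lie at 34.5, 22.3 and 10.1 CPM, and their other libraries below 2 CPM.

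In all, 16 members were too scarce to be tested in either comparison. Tubb1, Dync1i1, Dynlrb2, Kif12, Kif2b and Kif28 had no count in any library, which allows up to 0.177 to 0.217 CPM at this depth. Tuba3a, a testis form of alpha tubulin, had 1 count in A20-overexpressing replicate 3 alone, and Kif26a had 3 counts there alone. Kif6 had 3, 0 and 4 counts in the A20-overexpressing libraries and 7, 4 and 11 in the control libraries. Outside control replicate 1 no untested member exceeded 0.795 CPM, the level of Kif6 in control replicate 3.

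Genes that work with the motors and tracks were examined as a list of 111, and 98 were tested without control replicate 1. They comprised kinesin light chains and C-terminal kinesins, dynactin, dynein regulators, tubulin folding factors, the gamma tubulin ring complex, microtubule-associated proteins and tubulin-modifying enzymes. In that comparison 1 rose and none fell, or 1.02% called, against 4.60% of all genes, 1.92% higher and 2.68% lower. The median log2 fold change was -0.06, against -0.00 over all genes. An unadjusted p under 0.05 was found for 19 of the 98, 6 with higher and 13 with lower values, or 19.4% against 21.6% of all genes. With all 6 libraries 0 of 97 passed in edgeR, and 9 had an unadjusted p under 0.05, or 9.28% against 10.0% of all genes.

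The gene that rose was Tbcd, which encodes a cofactor in the assembly of the tubulin dimer. Tbcd was at 98.6, 102 and 102 CPM under A20 overexpression, against 99.0, 66.8 and 70.5 CPM in the control libraries. Control replicate 1 lay within the A20-overexpressing range and the other 2 controls below it. The log2 fold change was 0.52 ± 0.14 (SE), with an adjusted p of 0.0388 in edgeR, and 0.40 ± 0.16 (SE) with all 6 libraries, with an adjusted p of 0.469. Without any 1 of the A20-overexpressing libraries the adjusted p was 0.117 to 0.185.

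The other tubulin folding genes did not pass, and most had negative fitted changes without control replicate 1. Of the 16 tested genes of that list, which also holds the minor tubulins Tubd1 and Tube1, 11 were negative and 5 positive, with a median of -0.10. Ranges of CPM were separate between the groups for 8 of the 16, 2 with higher and 6 with lower values, against 37.9% of all genes. Tbca, a chaperone of beta tubulin, had a log2 fold change of -0.48 ± 0.15 (SE, adjusted p = 0.0776 in edgeR). The prefoldin subunits Pfdn2, Pfdn5 and Pfdn1, which hand new tubulin to the chaperonin, were at -0.50, -0.46 and -0.33, with adjusted p of 0.106, 0.0795 and 0.212 in edgeR. Pfdn2 was at -0.84 when all 6 libraries were fitted. Tbcc, another cofactor of dimer assembly, had a fitted change of 1.85 ± 0.61 (SE, adjusted p = 0.0901 in edgeR) and 0.49 with all 6 libraries. Fitted with all 6 libraries, 8 of the 16 were negative and 8 positive. Tbca, Tbcc and the prefoldin subunits are named outside the naming rule, which gives partner genes short of the threshold by counts only.

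No dynactin subunit passed: all 12 were tested, and their log2 fold changes ran from -0.39 to 0.21 without control replicate 1 and from -0.35 to 0.10 with it. Among the 9 genes of the gamma tubulin ring complex they ran from -0.25 to 0.52 without control replicate 1 and from -0.54 to 0.47 with it. Among the 13 tested tubulin-modifying enzymes they ran from -0.43 to 0.48 without it and from -0.31 to 0.41 with it, with none past the threshold.

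The reliability of a member's count depends on its sequence. For 24 of the 56 tested members no 50-base stretch of the longest coding transcript occurs in another gene, among them Dynll2, Kif20b and Kif21a, and for Kif15 the share is 0.44%. Both strands were searched. For 13 members the share is at least 25%. Where it comes from copies, a difference between them is uncertain if the counting could divide their reads. For Kif20a, Kif3c and Tuba4a it comes wholly or mostly from genes on the opposite strand. Overlap with a gene on the opposite strand, of at least 10% of exonic bases, applied to 8 tested members, among them Kif20a, which overlaps Cdc23 over 29.3%, and Tuba4a, which overlaps Stk16 over 37.3%. The strand setting of the counting is not given in the sources used here. The FPKM of Kif15 is lowered by its deposited length of 11020 bases, which exceeds the 4858 bases of its longest coding transcript. This holds for other members too, such as Kif23 (7901 against 3398 bases) and Kif18a (9832 against 3369 bases). The order of members by FPKM, and their FPKM shares, therefore depend on the deposited lengths.

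**Figure D5:**
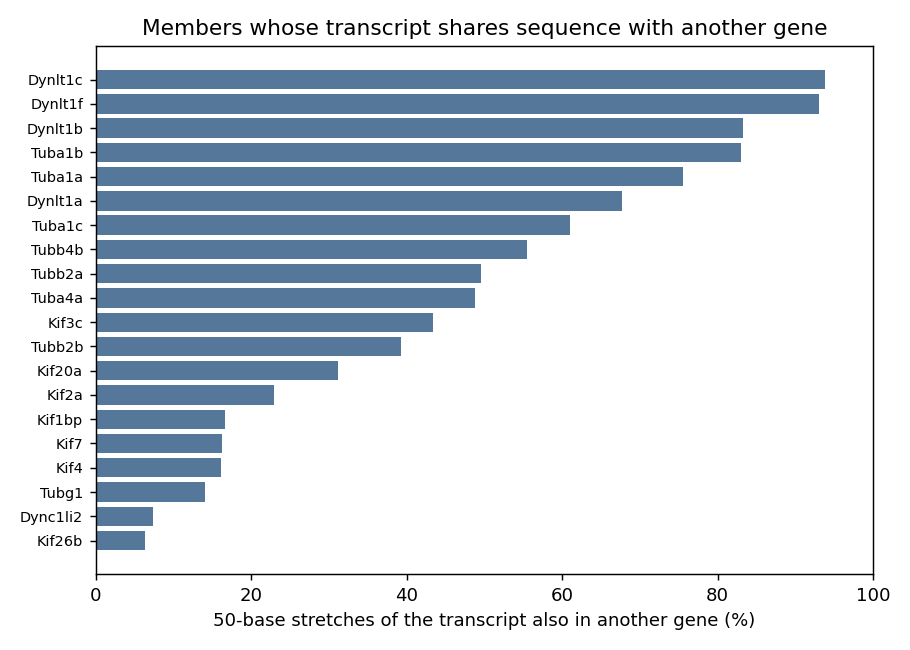
Share, in percent, of the 50-base stretches of a member's longest coding transcript that also occur, on either strand, in a transcript of another gene. The tested members with the largest shares are drawn. The Dynlt1 copies and the Tuba1 genes are at the top, with 93.7% for Dynlt1c and 83.1% for Tuba1b, while Dynll2 and Kif15 are too low to be among those drawn.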

How the data were processed

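RNA of TM3 cells was sequenced in 6 libraries, made per the labels' protocols with a SMARTER mRNA kit. The deposited table holds raw counts per gene, and a second deposited table holds FPKM. Checked against the counts, these FPKM are counts per gene length and per library size, with a library scaling made by the authors. Per the submitters' processing notes the build was GRCm38 (mm10). The aligner, counter and strand setting are not given in the sources used here.

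Counts were tested with edgeR 4.0.16 (R 4.3.3): TMM, the default filter by group, a robust quasi-likelihood fit on all genes, group as the only term, and Benjamini-Hochberg adjusted p over every gene kept (threshold 0.05). Positive log2 fold changes mean higher under A20 overexpression, and CPM use the total count. The standard error is approximate, the fold change divided by the square root of F. FPKM served for levels between genes and in limma 3.58.1. DESeq2 1.42.0 and limma-voom were alternatives. The procedure was tested on simulated counts. Standard errors and SD carry the spread between libraries, whereas floors of 3 counts cover counting error only.

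The genes described, the partner genes, the marker lists, the naming rule and the fit without control replicate 1 were chosen with earlier results of these data known. Described in full were members past the threshold, the up to 3 members of each role with the smallest unadjusted p without control replicate 1, and the member with the highest mean FPKM, 30 in all. Whether replicate numbers pair the libraries is not given. Deviations from the group means correlated at 0.0397, 0.117 and -0.0464 for same-numbered libraries, and at -0.179 to 0.156 for the other pairs. These values cannot decide it, because the control mean includes control replicate 1. Stretches of 50 bases and coding sequences came from GENCODE M21 (Python 3.11.15), promoters from RefSeq, where 56 of 72 members were matched by symbol.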

Additional observations from a re-analysis of the deposited data

How the results depend on the processing

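Without control replicate 1, 2 members passed the test, or 3.57% against 4.60% of all genes. RLE scaling and a filter of 1 CPM in 2 libraries gave 3 each, adding Kif21a. That was 5.36% in both, against 4.77% and 4.8% of all genes. No filter on low counts gave 5 (7.81% against 4.95% of all genes), adding Kif20b, Tuba1c and Tubb4a. DESeq2 gave 5 (8.93% against 6.5% of all genes), adding Kif20b, Kif21a and Tuba1c. The FPKM settings, limma-trend on log2(FPKM + 1), on log2(FPKM + 0.1) and on genes with a mean of at least 1 FPKM, gave 0 each. The fit with a replicate block gave 4, adding Kif18a, Kif20b and Tubb4a to Kif15 and losing Dynll2. Leaving out a library gave 0 to 12: 0 without each A20-overexpressing library, 2 without control replicate 2 and 12 without control replicate 3. The last 2 fits hold a lone control, assumed to vary like the other group. Of all genes, 628 passed, against 1173 with no filter, 888 in DESeq2 (6.5%), 235, 177 and 158 in the 3 FPKM settings, 797 with the block and 142 to 2423 when a library was left out.

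With all 6 libraries, 0 members passed, against 1 in DESeq2 (1.79% against 1.37% of all genes). When a library was left out 0 to 2 passed, the 2 coming without control replicate 1. Of all genes 2 passed, against 0 with library size alone, 23 with no filter, 0 with a filter of 1 CPM in 2 libraries, 183 in DESeq2, 0 in limma-voom, 0 in each FPKM setting, 2 with the block and 0 to 628 when a library was left out.

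Among the 30 members described in full, 417 of 450 values without control replicate 1 and 477 of 480 values with all 6 libraries kept their side of the threshold. No value that passed in either setting changed sign. Dynll2 passed in 8 of 15 alternatives to the 5-library comparison (log2 fold change -0.58 to -0.49, adjusted p 0.00473 to 0.139) and Kif15 in 9 of 15 (adjusted p 0.00519 to 0.102). Dynll2 lost its call under the block (adjusted p = 0.0887 in edgeR). The partner gene Tbcd passed in 8 of 15, an addition made after its value was seen. The cause of these differences was not tested. Depth limits the 16 untested members, most of which lay under 3 counts in most libraries.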
